A study of Mus musculus with 8 samples.

Results

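The genes described here are 9 transcription factors that set the identity of sensory neurons as a whole or of the nociceptor lineage: Pou4f1, Pou4f2, Pou4f3, Isl1, Isl2, Drgx, Tlx3, Prdm12 and Neurod1. They were taken by name from the 55414 genes counted in each library, and all 9 had a gene identifier. Poly(A) RNA of the dorsal root ganglia (DRG) of E18.5 mouse embryos was sequenced in bulk, in 4 AD1 OE and 4 Control libraries. AD1 OE embryos were AdvillinCre/+;Rosa26Dach1/+ and Control embryos Advillin+/+;Rosa26Dach1/+. Both groups thus carried the Rosa26 allele, in which Dach1 and EGFP follow a stop cassette flanked by lox sites, on a mixed C57Bl/6J and CD1 background, and AD1 OE alone carried the Cre, expressed from Advillin in sensory neurons. The ganglia were taken whole, with neurons and glia, so only part of the RNA came from cells in which the Cre acts. In such bulk samples, fewer cells of a type and less RNA per cell cannot be told apart. The comparison asks whether the transcripts of these factors differed when Dach1, a transcription factor of the Dachshund family, was expressed again across the sensory neurons at late embryonic stages. The Cre itself, EGFP and the Advillin allele that carries the Cre differ between the groups along with Dach1. Their effects cannot be told apart from that of Dach1.

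The members act in succession and in overlapping sets. Neurod1 is a bHLH factor that follows the neurogenins in newly formed neurons. Pou4f1 (Brn3a), a POU homeodomain factor, and Isl1, a LIM homeodomain factor, are then switched on in nearly all sensory neurons, where together they end the early neurogenic programme and open that of the subtypes. Pou4f2 (Brn3b) and Pou4f3 (Brn3c) are the close relatives of Pou4f1, best known from retinal ganglion cells and hair cells, and Isl2 is the close relative of Isl1. Drgx (Prrxl1) and Tlx3 are homeodomain factors shared by DRG neurons and the dorsal spinal cord neurons that they contact. Prdm12 is a zinc finger factor of nociceptor precursors, and mice that lack it form no nociceptors.

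None of the 9 members was called as changed in AD1 OE by edgeR, and the AD1 OE and Control libraries overlapped for all but Pou4f2. DESeq2, the tool that the study used, called 1 member at the same limits, Pou4f2, beside 655 of all 17721 tested genes. All 9 passed the filter on low counts and were tested by edgeR's quasi-likelihood test, with Benjamini-Hochberg adjustment over the 17721 tested genes. A gene was called at an adjusted p below 0.005 and an absolute log2 fold change above 0.25, a rule that called 2.57% of all tested genes (0.784% higher and 1.78% lower in AD1 OE). At an adjusted p below 0.05 with a log2 fold change beyond 1 either way, 0 members and 0.728% of all tested genes passed. By unadjusted p below 0.05 alone, 2 of the 9 members passed (Pou4f2 and Pou4f3), beside 18.6% of all tested genes. At an adjusted p below 0.05 with no limit on the fold, 1 member passed (Pou4f2), beside 6.55% of all. The median absolute log2 fold change was 0.087 over the members and 0.084 over all tested genes. These medians do not compare genes of like level. All members but Neurod1 lay at percentile 60.5 or above of the mean CPM among tested genes, and genes of matched level were not compared.

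For 6 members the 95% interval of the log2 fold change lay wholly within -0.25 and 0.25: Pou4f1, Isl1, Isl2, Drgx, Tlx3 and Prdm12. The same held for 47.8% of all tested genes. With the sex score as a covariate it no longer held for Tlx3 (log2 fold change 0.15; 95% interval -0.027 to 0.33) and Prdm12 (0.16; 0.062 to 0.27). For Tlx3 it was also lost with the pan-neuronal offset (upper bound 0.256) and on leaving out AD1 OE replicate 1, 2 or 4 or Control replicate 1 or 2 (upper bounds 0.258 to 0.292), and it held for the other 4 genes in each of the 18 alternative fits. For Pou4f2, Pou4f3 and Neurod1 the interval reached past that limit on 1 side, so a difference of the size of the calling limit cannot be set aside for them. In CPM, that is counts scaled to a common library size, the AD1 OE and Control libraries did not overlap for 1 member, Pou4f2, against 13.0% of all tested genes (5.69% with AD1 OE above Control, as for Pou4f2, and 7.26% with AD1 OE below).

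**Figure D1:**
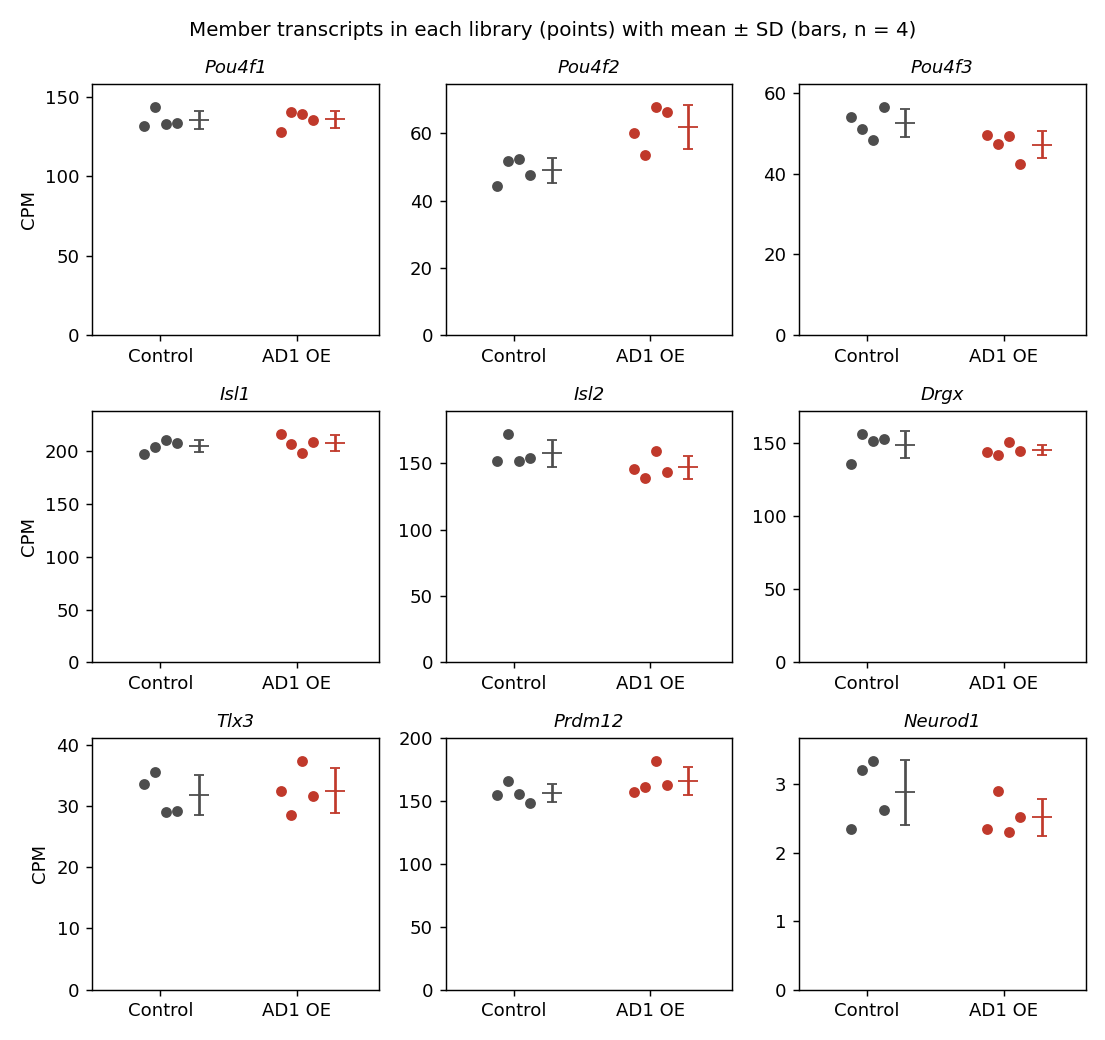
Transcript level of each member in CPM (vertical axis from 0) in the 4 Control and 4 AD1 OE libraries, 1 point per library in the order of replicate number, with the mean and SD beside them. The 2 groups overlap in every panel except that of Pou4f2, where the AD1 OE libraries lie between 53.6 and 67.9 and the Control libraries between 44.4 and 52.4.

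The libraries held 22339059 to 44025625 counts. Within a group they correlated at 0.988 or above (Pearson's r of log2 CPM across genes), yet differed by more than counting noise alone (chi-square per degree of freedom of 4.34 to 12.2 between replicates). As a check of the labels, the mean Dach1 level was 95.9 ± 5.28 CPM in the AD1 OE libraries against 32.6 ± 1.64 CPM in those of Control (SD, n = 4). Avil, the gene that carries the Cre, stood at 464 ± 12 and 892 ± 35.1 CPM. Sex, read from Xist and 4 Y-linked genes, was unevenly spread, with 3 male and 1 female AD1 OE libraries against 1 male and 3 female Control libraries, so values within each sex are given below for Pou4f2, Pou4f3 and Neurod1, the members that differed most. The log2 difference of the means (AD1 OE minus Control) was 0.20 within females and 0.11 within males for Prdm12. For Tlx3 it was 0.19 and 0.084. The labels number the replicates and the study counts its samples as embryos, so p-values measure the spread between libraries taken as separate embryos.

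The 3 POU4 genes are described first, since the largest difference fell among them. Pou4f1 (ENSMUSG00000048349, chromosome 14) and Pou4f2 (ENSMUSG00000031688, chromosome 8) also share the longest identical stretch found between related members, 71 bases of coding sequence in the part that encodes the POU-specific domain. The stretch is shown because a read that falls wholly inside it cannot be assigned to one gene. A read longer than 71 bases cannot fall wholly inside, and the length of the reads was not set against the stretch here. Capitals mark the identical 71 bases and lower case the 30 bases on either side, 5′ to 3′ on the transcript (minus strand, exon 2 of each gene model), from the GRCm38 reference at chr14:104466024-104466154 for Pou4f1 and chr8:78435032-78435162 for Pou4f2.
Pou4f1: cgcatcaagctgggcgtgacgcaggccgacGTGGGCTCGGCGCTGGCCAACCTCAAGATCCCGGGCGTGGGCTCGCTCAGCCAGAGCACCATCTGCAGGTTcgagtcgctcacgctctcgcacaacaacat
Pou4f2: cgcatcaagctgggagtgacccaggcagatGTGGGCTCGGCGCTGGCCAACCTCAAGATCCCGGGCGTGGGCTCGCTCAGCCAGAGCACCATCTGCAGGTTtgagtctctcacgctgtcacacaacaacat

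Reads of this kind could affect few counts of either gene. Of the windows of 50 bases along the transcripts, 23 of 4623 in Pou4f1 (0.498%) and 23 of 3155 in Pou4f2 (0.729%) occurred in both. Pou4f3 shared no such window with either, its longest identical runs being 41 bases with Pou4f1 and 35 bases with Pou4f2. Isl1 and Isl2 shared no window either, with a longest run of 23 bases.

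Pou4f1 lay at 128, 140, 139 and 135 CPM in AD1 OE replicates 1 to 4 and at 132, 144, 133 and 133 CPM in Control replicates 1 to 4. The groups overlapped over nearly their whole range, and the means were 135.6 ± 5.49 and 135.4 ± 5.59 CPM. The log2 fold change was 0.00083 (SE 0.040; 95% interval -0.088 to 0.089; adjusted p = 0.995). The interval in fold terms ran from 0.941 to 1.06, one of the narrowest among the members.

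Pou4f2 lay at 59.9, 53.6, 67.9 and 66.2 CPM in AD1 OE and at 44.4, 51.7, 52.4 and 47.6 CPM in Control. Every AD1 OE library was above every Control library, although AD1 OE replicate 2 exceeded Control replicate 3 only narrowly. The means were 61.9 ± 6.51 and 49.0 ± 3.73 CPM, and the fold was 1.26 (95% interval 1.13 to 1.42; log2 fold change 0.34, SE 0.076). The adjusted p was 0.0204, so the fold passed its limit and the p did not. The same difference was called by DESeq2 (log2 fold change 0.34; adjusted p = 0.000568), and by edgeR without the filter on low counts (adjusted p = 5.34e-05), and the other 16 alternative fits did not. Leaving out 1 library moved the adjusted p from 0.0050 (without AD1 OE replicate 2) to 0.0586 (without Control replicate 4).

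The Pou4f2 difference had the same direction in each sex. The female AD1 OE library stood at 67.9 CPM against a mean of 49.5 CPM in the female Control libraries, and the male AD1 OE libraries had a mean of 59.9 CPM against 47.6 CPM in the male Control library. With the sex score as a covariate the log2 fold change was 0.40 (SE 0.083; adjusted p = 0.0140). In each sex, 1 of the groups held a single library, so these within-sex values have no test.

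Pou4f3 (ENSMUSG00000024497, chromosome 18) lay at 49.6, 47.3, 49.2 and 42.5 CPM in AD1 OE and at 54.0, 51.1, 48.4 and 56.6 CPM in Control. The ranges overlapped through Control replicate 3, which was below 2 of the AD1 OE libraries. The log2 fold change was -0.16 (SE 0.063; 95% interval -0.29 to -0.019), with an unadjusted p of 0.0289 and an adjusted p of 0.201. It was negative in each of the 18 alternative fits, from -0.19 to -0.10. Within females the log2 difference of the means was -0.055 and within males -0.29.

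The make-up of the POU4 family was also set out per exon length. Pou4f1 gave 42.7 ± 1.82% of the summed POU4 level per kb in AD1 OE and 43.8 ± 1.01% in Control, with overlapping libraries. Pou4f2 gave 28.4 ± 2.40% and 23.1 ± 1.65%, and Pou4f3 28.9 ± 1.98% and 33.1 ± 2.24%. For both of these shares the groups did not overlap, though in Pou4f2 the closest libraries stood at 25.18% each. The ratio of Pou4f2 to Pou4f3 per length was 0.988 ± 0.142 in AD1 OE and 0.704 ± 0.0955 in Control. These ratios restate the levels above and were not tested.

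**Figure D2:**
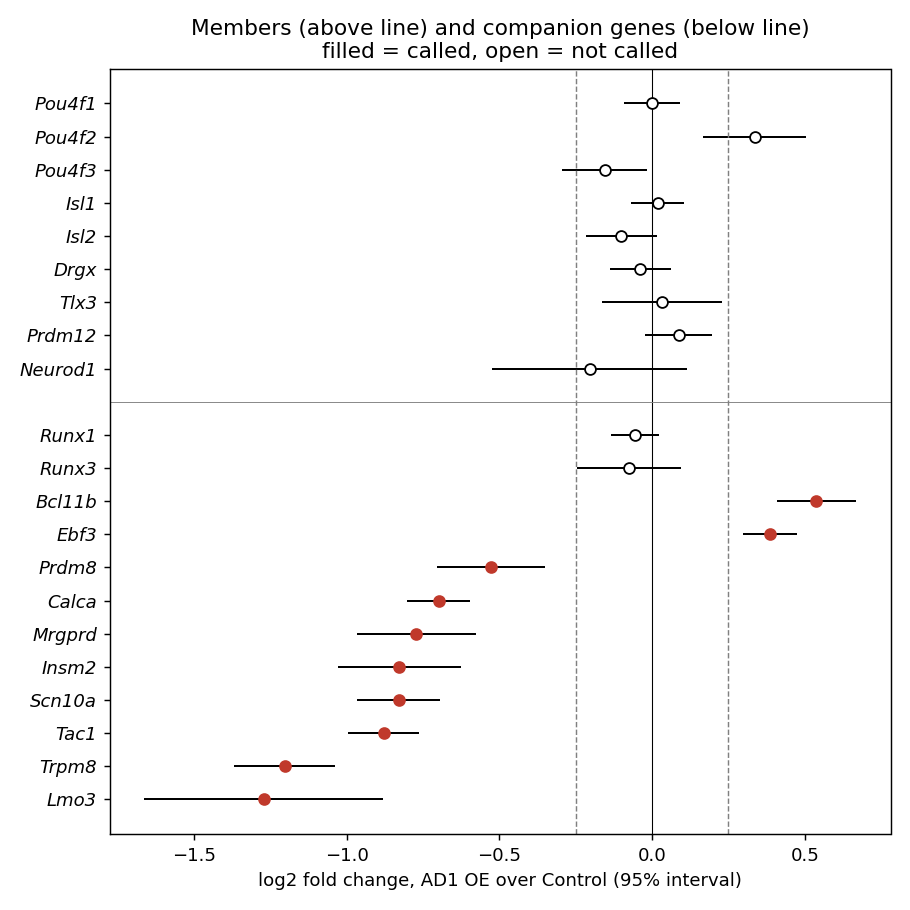
Log2 fold change of AD1 OE over Control with its 95% interval for the 9 members (above the line) and for Runx1, Runx3 and the 10 called companion genes (below it). Filled points are called and open points are not, and dashed lines stand at -0.25 and 0.25. No member is filled, and Pou4f2 (0.34) is the only member whose point lies beyond a dashed line.

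Isl1 (ENSMUSG00000042258, chromosome 13) had the highest CPM of the members. It lay at 217, 206, 198 and 209 CPM in AD1 OE and at 197, 204, 211 and 208 CPM in Control. The groups covered nearly the same range, and the log2 fold change was 0.018 (SE 0.038; 95% interval -0.064 to 0.100; adjusted p = 0.855).

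Isl2 (ENSMUSG00000032318, chromosome 9) lay at 145, 139, 159 and 143 CPM in AD1 OE and at 151, 172, 152 and 154 CPM in Control. AD1 OE replicate 3 lay inside the Control range and the other 3 AD1 OE libraries below it, and Control replicate 2 stood above all others. The log2 fold change was -0.10 (SE 0.052; 95% interval -0.21 to 0.012; adjusted p = 0.330). Isl2 overlaps the gene Gm17226 on the opposite strand, with 0 shared exon bases.

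Drgx (ENSMUSG00000041730, chromosome 14) lay at 144, 142, 150 and 144 CPM in AD1 OE and at 135, 156, 151 and 153 CPM in Control. All AD1 OE libraries fell within the Control range. The log2 fold change was -0.038 (SE 0.044; 95% interval -0.14 to 0.059; adjusted p = 0.714).

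Tlx3 (ENSMUSG00000040610, chromosome 11) was lower, at 32.5, 28.6, 37.4 and 31.7 CPM in AD1 OE and 33.6, 35.6, 29.0 and 29.2 CPM in Control. The AD1 OE range enclosed that of Control. The log2 fold change was 0.034 (SE 0.088; 95% interval -0.16 to 0.23; adjusted p = 0.889), and this interval was the widest of the 6 that stayed inside the limit.

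Prdm12 (ENSMUSG00000079466, chromosome 2) lay at 157, 161, 182 and 163 CPM in AD1 OE and at 155, 166, 155 and 148 CPM in Control. AD1 OE replicate 3 was the highest library, and Control replicate 2 lay above the other 3 AD1 OE libraries. The log2 fold change was 0.087 (SE 0.049; 95% interval -0.020 to 0.19; adjusted p = 0.382), and with the sex score as a covariate it was 0.16 (adjusted p = 0.0794). In the GENCODE M21 annotation 200 exon bases of Prdm12 (8.09%) lie opposite exons of Gm13425. No source gives the strand setting of the counting, and reads from those bases are therefore uncertain.

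Neurod1 (ENSMUSG00000034701, chromosome 2) was near the low end, with 52 to 104 counts in a library. It lay at 2.35, 2.90, 2.30 and 2.52 CPM in AD1 OE and at 2.34, 3.21, 3.34 and 2.63 CPM in Control. The groups overlapped, and the log2 fold change was -0.20 (SE 0.145; 95% interval -0.52 to 0.11; adjusted p = 0.505). The interval includes a fall of the size of the calling limit. The log2 difference of the means was -0.37 within females and -0.021 within males. Neurod1 shares 201 exon bases (7.37%) with Cerkl on the same strand, and 9.66% of its windows of 50 bases recur in an overlapping gene, so its count is uncertain where reads fall there.

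AD1 OE replicate 3, the female library of that group, was the highest of the 4 AD1 OE libraries for Pou4f2, Isl2, Drgx, Tlx3 and Prdm12, and the lowest for Isl1 and Neurod1. Without it, no member was called. As the only female library of its group, it does not allow sex and library to be told apart.

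Set per kb of exon, the members fell into a clear order of levels. In Control, Isl2 was highest (71.7 ± 4.54 CPM per kb), followed by Prdm12 (63.1 ± 2.89), Isl1 (51.8 ± 1.50), Drgx (35.7 ± 2.23) and Pou4f1 (29.0 ± 1.20). These 5 occupied separate ranges over the 4 libraries. Pou4f3 (21.9 ± 1.48) and Tlx3 (20.8 ± 2.14) overlapped each other, and Pou4f2 (15.3 ± 1.16) lay below both. Neurod1 was far lower, at 1.05 ± 0.174 CPM per kb.

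The order in AD1 OE differed at neighbouring places. Prdm12 (67.1 ± 4.46 CPM per kb) and Isl2 (66.9 ± 4.02) overlapped, followed by Isl1 (52.4 ± 1.91), Drgx (34.8 ± 0.880) and Pou4f1 (29.0 ± 1.17) in separate ranges. Tlx3 (21.2 ± 2.39), Pou4f3 (19.7 ± 1.37) and Pou4f2 (19.3 ± 2.03) overlapped one another. Pou4f2, alone at its level in Control, thus shared the range of Tlx3 and Pou4f3 in AD1 OE. Exon lengths came from an older annotation than that of the counts, which touches the order of genes and not the comparison between groups.

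**Figure D3:**
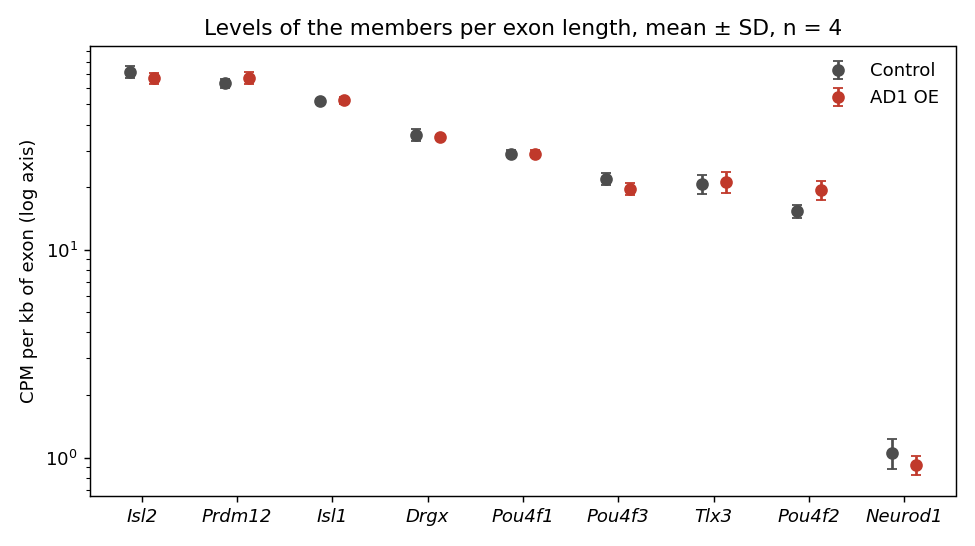
Level of each member in CPM per kb of exon (logarithmic vertical axis), mean and SD of 4 libraries, in Control (grey) and AD1 OE (red), ordered by the Control level. Isl2, Prdm12 and Isl1 lie above 50 in both groups and Neurod1 near 1, and the Pou4f2 points stand further apart (15.3 and 19.3) than those of its neighbours.

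The other genes of the network were taken from lists of 80 companions, of which 66 were tested. Among them 10 were called, 2 higher and 8 lower in AD1 OE, beside 2.57% of all tested genes (0.784% higher and 1.78% lower). Since several of these genes were known from earlier results of the same libraries to have changed, the count is a description and is no support for a change of the lists. The 65 transcription factors and cofactors among them (51 tested) gave 2 higher and 3 lower, with a median log2 fold change of -0.0054, and the 15 receptors, channels, peptides and factors that loss of a member is known to affect (all tested) gave 0 higher and 5 lower, with a median of -0.12. The median over all tested genes was 0.0018. Ntrk3, from that list of 15 and named here after its values were seen, was not called by edgeR (log2 fold change 0.30; adjusted p = 0.0171). It was called higher in 3 of 18 alternative fits, DESeq2 among them. DESeq2 called 11 companions at the same limits, 3 higher and 8 lower.

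Among the neurogenic bHLH and zinc finger factors, 10 of 16 were tested and 1 was called. Insm2, a zinc finger factor of neuroendocrine and neuronal differentiation, was lower in AD1 OE (11.2 ± 1.06 against 19.7 ± 2.10 CPM; log2 fold change -0.83, SE 0.090; adjusted p = 0.000145). The neurogenins, which precede Neurod1, were nearly absent, with group means of Neurog1 of at most 0.0156 CPM and of Neurog2 of at most 0.0636 CPM, and were not tested.

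Of the LIM cofactors and relatives of the Isl genes, 11 of 16 were tested and 1 was called. Lmo3, a LIM-only protein, was lower at 1.24 ± 0.0298 against 3.02 ± 0.753 CPM (log2 fold change -1.27, SE 0.178; adjusted p = 0.000923). The call was lost on leaving out AD1 OE replicate 1 and on adding the sex score to the fit. Ldb2, a LIM-domain binding cofactor named here after its values were seen, stopped just short of the fold limit (log2 fold change -0.247, SE 0.033; adjusted p = 0.000600) and was called in 3 of 18 alternative fits. None of the 8 POU relatives, all tested, was called.

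Among the relatives of Tlx3 and Prdm12 and the components of the G9a histone methyltransferase complex, a proposed and debated partner of Prdm12, 8 of 11 were tested. Prdm8 was lower (29.6 ± 3.26 against 42.7 ± 3.24 CPM; log2 fold change -0.53, SE 0.079; adjusted p = 0.00144), and its call was lost on leaving out AD1 OE replicate 1, 2 or 4 or Control replicate 2 or 3, with an adjusted p of at most 0.00769 over all alternatives. Of 14 other factors of sensory neurons, all tested, 2 were higher. Ebf3, an EBF factor of early neurons, stood at 135 ± 0.967 against 103 ± 5.43 CPM (log2 fold change 0.39, SE 0.039; adjusted p = 7.57e-05). Bcl11b (Ctip2), a zinc finger factor of several projection neuron types, stood at 38.2 ± 1.22 against 26.2 ± 1.91 CPM (log2 fold change 0.54, SE 0.058; adjusted p = 0.000136). Both were called in all 18 alternative fits, as was Insm2.

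The genes that depend on a member differed in what they did. Runx1, which divides nociceptors into peptidergic and non-peptidergic ones, had means of 78.2 ± 2.24 and 81.3 ± 1.06 CPM in AD1 OE and Control (log2 fold change -0.055; SE 0.034; adjusted p = 0.436). Runx3, a factor of proprioceptors, stood at 11.8 ± 0.538 and 12.4 ± 1.16 CPM (log2 fold change -0.075; SE 0.076; adjusted p = 0.664). Neither passed the test, and the groups of each overlapped.

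The 5 that were called lower, beside 1.78% of all tested genes, are genes of mature nociceptors and thermoreceptors. The cold receptor channel Trpm8 was lower at 16.8 ± 0.827 against 38.7 ± 3.84 CPM (log2 fold change -1.20; SE 0.074), and the neuropeptide gene Tac1, which encodes substance P, at 64.3 ± 3.50 against 118 ± 7.14 CPM (log2 fold change -0.88; SE 0.052). The other 3 were the sodium channel gene Scn10a (log2 fold change -0.83), the receptor gene Mrgprd (-0.77) and Calca (-0.70), which encodes CGRP. Their adjusted p ranged from 1.61e-06 for Tac1 to 0.000197 for Mrgprd, and all 5 were called in all 18 alternative fits. Other nociceptor genes of the list, named here after their values were seen, were not called by edgeR. Scn11a (log2 fold change 0.21; adjusted p = 0.0858) and P2rx3 (0.16; adjusted p = 0.0642) were on the higher side. For both, every AD1 OE library lay above every Control library, as for 5.69% of all tested genes. Trpv1 (-0.12; adjusted p = 0.489) and Trpa1 (-0.47; adjusted p = 0.327) were on the lower side.

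**Figure D4:**
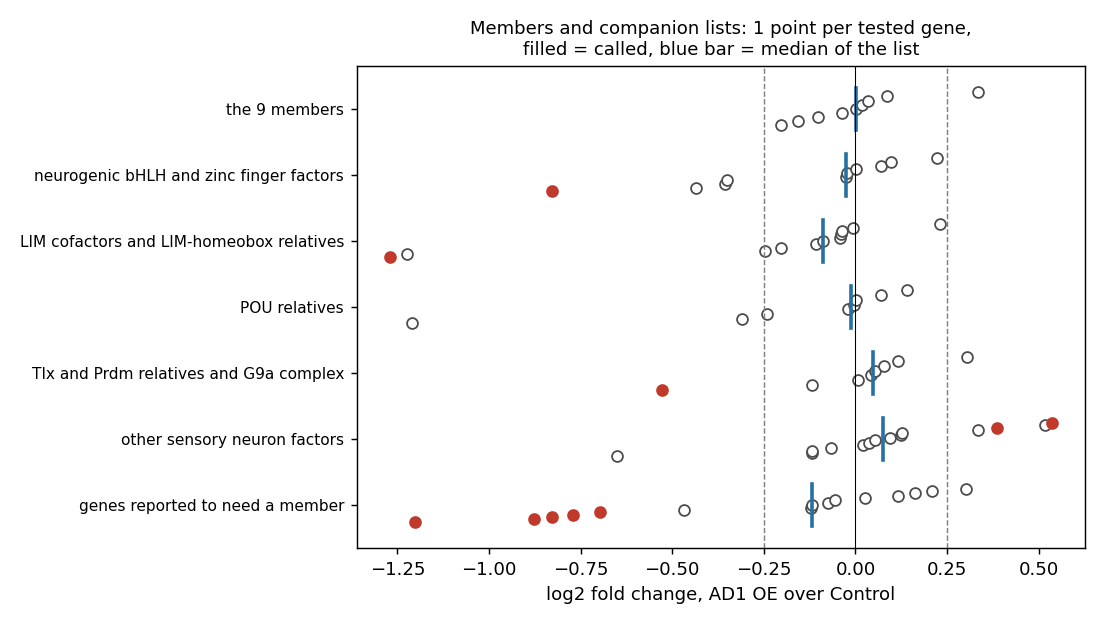
Log2 fold change of AD1 OE over Control for each tested gene (points) of the 9 members and of the 6 companion lists, with filled points for called genes, a blue bar for the median of each list and dashed lines at -0.25 and 0.25. The members hold no filled point, and the list of genes that need a member holds 5, all on the lower side, from -0.70 to -1.20.

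The cell make-up of the ganglia was read from marker lists. Over 12 pan-neuronal genes the summed level was 13226 to 14087 CPM in AD1 OE and 13777 to 14360 CPM in Control, a mean of 96.9% of Control (exact permutation test, two-sided, p = 0.143; the smallest p that 4 against 4 libraries allow is 0.0286). None of the 12 was called and 10 were lower in AD1 OE. Without AD1 OE replicate 3 the difference of the summed level reached that smallest p (exact permutation test over the remaining 7 libraries, p = 0.0286). Scaling to the pan-neuronal sum instead of to all genes moved the median log2 fold change of all genes to 0.048 and that of Pou4f2 to 0.38 (adjusted p = 0.00831), and no member was called.

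Several members, among them Isl1, Isl2, Drgx, Tlx3 and Prdm12, are also made by spinal cord neurons, and Isl1 by sympathetic neurons. Markers of both kinds of neuron were therefore read as well. Of the spinal cord list, 8 of 11 were tested and 0 called, and the summed level was 8.55 to 11.3 CPM in AD1 OE and 6.88 to 19.8 CPM in Control. Its defining genes were near 0 (Lbx1 at most 0.367 and Mnx1 at most 0.180 CPM) or low (Lmx1b at most 1.89 and Olig2 at most 3.28 CPM) in every library. Of the sympathetic list, 3 of 8 were tested and 0 called, with a sum of 2.72 to 3.86 CPM in AD1 OE and 2.46 to 11.1 CPM in Control, and its defining genes Hand1 and Hand2 reached at most 0.405 and 0.765 CPM. The glial list gave 0 calls among 9 genes and sums of 1401 to 1748 CPM in AD1 OE and 1429 to 1750 CPM in Control. The lists of skeletal muscle, endothelium, fibroblasts, macrophages and erythroid cells gave 0 calls among 25 tested genes. The erythroid sum was 235 to 804 CPM in AD1 OE and 223 to 390 CPM in Control, and each of its 6 genes had a log2 fold change above 0, from 0.37 to 0.74. The fibroblast sum was 4066 to 4501 and 3442 to 4145 CPM, and the muscle sum 109 to 590 and 131 to 372 CPM. The part of these other cells in the values of the members was not tested.

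The genes whose profile over the 8 libraries was most like that of each member were found by the root mean square difference of mean-centred log2 CPM among 15509 candidates. For Pou4f1 they were Uggt1 (0.020) and Gdpd1 (0.023), for Isl1 Usp24 (0.015) and Nfx1 (0.017), for Drgx Baiap2l1 (0.019) and Pip4p1 (0.020), and for Isl2 Man1c1 (0.024) and Vps18 (0.027). For Prdm12 they were Adnp2 (0.022) and Ythdf2 (0.033), for Pou4f3 Arid5a (0.039) and Rab1b (0.045), for Tlx3 Mcrip2 (0.052) and Prr7 (0.054), and for Neurod1 4921507P07Rik and Gm19744 (0.079 each). Pou4f2 lay nearest to Mcc (0.063), which was called higher in AD1 OE (log2 fold change 0.36; adjusted p = 0.00426), and to Gm13372 (0.075). No other gene in this set of nearest neighbours was called, and none was a companion gene.

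**Figure D5:**
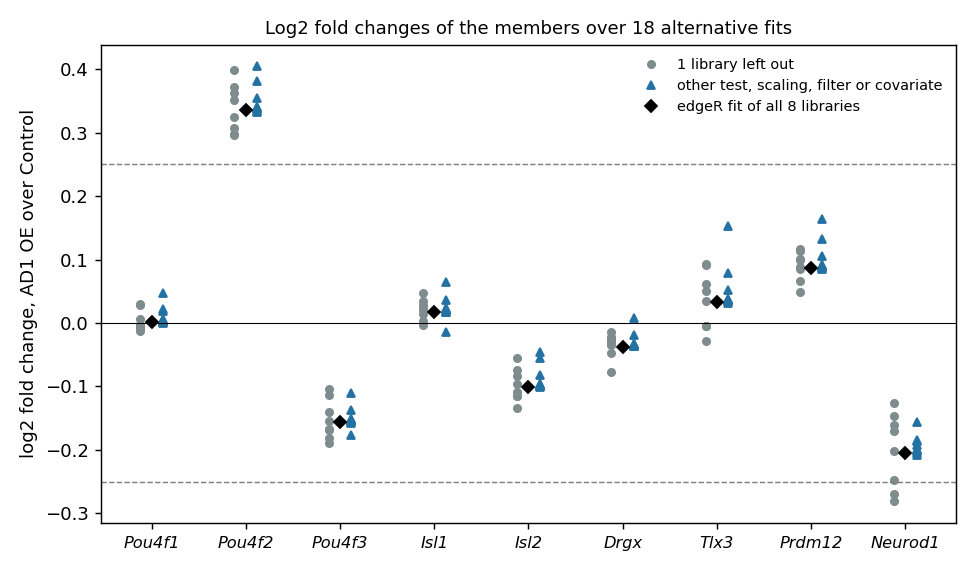
Log2 fold change of AD1 OE over Control of each member in the edgeR fit of all 8 libraries (diamonds), in the 8 fits that leave out 1 library (grey points) and in the 10 fits with another test, scaling, filter or covariate (blue triangles), with dashed lines at -0.25 and 0.25. Pou4f2 stays between 0.30 and 0.40, Pou4f1, Isl1, Drgx and Tlx3 fall on both sides of 0, and Neurod1 crosses the lower dashed line in fits without 1 library.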

How the data were processed

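RNA was extracted from whole DRG of E18.5 embryos (4 AD1 OE and 4 Control), libraries were prepared with an Illumina stranded mRNA kit, and reads were sequenced on a NovaSeq. Per the labels' processing notes and the study's methods, the authors used bcl2fastq 2.20.0.422, aligned reads to GRCm39 with STAR 2.7.8a and counted them per gene with featureCounts 2.0.1. The deposited values are raw counts per Ensembl gene, neither normalized nor filtered, in 1 table per library. The strand setting of the counting is not given in the sources used here. Groups and replicate numbers came from the titles and genotypes.

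GENCODE M21, on the older build GRCm38, was used for symbols (52081 of 55414 identifiers), exon lengths, overlaps and the printed stretch, which was matched there by transcript. Drgx was found under an older symbol through RefSeq synonyms.

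Counts were analysed with edgeR 4.0.16 in R 4.3.3 (filterByExpr, TMM, quasi-likelihood F test, genotype as the only term, Benjamini-Hochberg adjustment over 17721 genes). The thresholds, an adjusted p below 0.005 and an absolute log2 fold change above 0.25, are those the study used for this comparison. CPM values used TMM-scaled library sizes, and log2 CPM a prior count of 2. Depth was 22339059 to 44025625 counts per library. With no molecular identifiers in the reads, duplicates could not be told from separate molecules. The common biological coefficient of variation over the tested genes was 8.22%. Alternatives were DESeq2 1.42.0 (Wald test), limma-voom 3.58.1, RLE, upper-quartile and total-count scaling, no filter, at least 1 CPM in 4 libraries, a replicate block, a sex score covariate, an offset by the pan-neuronal sum and leaving out each library.

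The members and lists were chosen with earlier results of these data known. The text names all members, Dach1 and Avil, the called companion genes, Runx1 and Runx3, the 2 nearest profiles of each member, and markers near 0 that define a cell type; any other gene is identified where it stands. Some single genes that the rule names are not reported here.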

Additional observations from a re-analysis of the deposited data

Results flagged for a closer look

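In 2 of the 18 combinations of member and group, 1 library stood apart from the other 3 by Dixon's test at the 95% level. Pou4f1 stood at 143.742 CPM in Control replicate 2, with the other Control libraries at 131.8 to 133.4 CPM. Isl2 stood at 172.055 CPM in the same library, with the other Control libraries at 151.5 to 153.8 CPM. Chance alone sets apart about 1 in 20 groups. Without Control replicate 2 the log2 fold change of Pou4f1 was 0.031 and that of Isl2 -0.055 (edgeR, adjusted p = 0.780 and 0.640), and neither was called.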

How the results depend on the processing

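Of the members, Pou4f2 alone was called in any alternative, by DESeq2 (log2 fold change 0.338; adjusted p = 0.000568) and without the filter on low counts (0.340; adjusted p = 5.34e-05); the count of called members was 1 in those fits and at an adjusted p below 0.05 with no limit on the fold. Its log2 fold change was 0.296 to 0.399 on leaving out 1 library. Differences close to 0 changed sign: Pou4f1 with limma-voom (-6.39e-05), Isl1 with the sex score (-0.0141), Drgx with the pan-neuronal offset (0.00827), and on leaving out 1 library Pou4f1 (-0.0128 to 0.0307), Isl1 (-0.00353 to 0.0477) and Tlx3 (-0.0291 to 0.0924). Called genes over all tested numbered 455, with 747 without the filter, 655 with DESeq2, 1161 at an adjusted p below 0.05 with no limit on the fold, 129 with a log2 fold change over 1 at that p (2 of the companions) and 289 to 420 on leaving out 1 library, lowest without AD1 OE replicate 1. Leaving out 1 library gave 9 to 11 called companions. With the pan-neuronal offset the split of calls was 184 higher and 237 lower, against 139 and 316. The difference of the pan-neuronal sum was -430.6 CPM, and -309.1 to -596.1 CPM on leaving out 1 library, passing 0.05 by the exact permutation test only without AD1 OE replicate 3 (-596.1 CPM). The causes of these changes were not tested.

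Replicate numbers did not pair the libraries: deviations of same-numbered libraries correlated at -0.0099, -0.054, -0.035 and 0.31, and 1 of 4 numbers correlated best with itself. With the replicate block 348 genes were called, 0 of them members and 10 companions, and Pou4f2 had a log2 fold change of 0.33 (adjusted p = 0.0225).

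Neurod1, with at most 104 counts in a library, had the widest interval of the members.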
